A study of Homo sapiens
Mus musculus with 24 samples.

Results

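The genes described here are the murine chemokines and chemokine receptors of tumors grown in mice from MDA-MB-231, a human triple-negative breast cancer cell line. Members were chosen by symbol alone, as murine genes of the Ccl, Cxcl, Cx3c, Ccr, Cxcr and Ackr series with Xcl1 and Xcr1, and 46 of the 16667 murine genes matched. Of these, 30 encode ligands and 16 encode receptors. Because human and murine reads of each tumor were counted separately, the murine values are taken to report the host tissue inside the graft.

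Chemokines are small secreted proteins that guide leukocytes by binding membrane receptors that signal through inhibitory G proteins. They are named by the spacing of their first cysteines as CC, CXC, XC or CX3C. In tumors, CC ligands such as Ccl2 and Ccl5 draw monocytes and macrophages, ELR-type CXC ligands draw neutrophils, and Cxcl9 and Cxcl10 are induced by interferon and draw lymphocytes and NK cells. Atypical receptors (Ackr) bind chemokines without signaling through G proteins and clear or carry them.

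All hosts were female Rag1-null mice (B6/Rag1KO), which lack mature T and B cells, so receptors that T cells usually carry were measured here in a host without them. Cells of the line were placed subcutaneously at the base of the neck when the mice were 14 weeks old, and mice with established tumors were then assigned for 4 weeks. CTRL mice (n = 4) ate a high-fat diet and received weekly saline. Chemo mice (n = 5) ate the same diet and received weekly doxorubicin with cyclophosphamide, both intraperitoneally. MC mice (n = 5) ate the high-fat diet with moringa seed extract concentrate. MC + Chemo mice (n = 6) received both, and Lean mice (n = 4) ate the Lean diet with no intervention. Each library came from the tumor of a different mouse and is called by its group and mouse number.

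Murine counts per library ran from 3664056 to 9892470, and the members took 0.153 to 0.462% of them (median 0.351%). CTRL 17 stood apart from the other 3 CTRL libraries. Its summed endothelial markers were at 444 normalized counts against 2399 to 3000 in the others, and its summed fibroblast markers at 155565 against 62187 to 84542. MC 41, MC + Chemo 5 and MC + Chemo 43 had summed skeletal muscle markers of 28878 to 47972 (median of the 24 libraries 128), and MC 41 and MC + Chemo 52 had summed adipocyte markers of 61669 and 66457 (median 3172). Summed erythroid markers were at 582 to 2034 in CTRL and at 2672 or more in every other library, and all 4 were higher at an unadjusted p below 0.05 in Chemo, MC and MC + Chemo. Summed neutrophil markers were at 260.2 to 2304 in CTRL, 989.6 to 7375 in Chemo and 592 to 6568 in MC + Chemo. Of the 5 tested, Mmp8, S100a8 and S100a9 were higher at that threshold in both (without CTRL 17, only S100a8 in MC + Chemo). Without CTRL 17, Csf3r and Retnlg were lower in Chemo and Csf3r was lower in MC + Chemo, not at that threshold. The part of these cells in the comparisons with CTRL was not tested. MC + Chemo 5 is listed under MC in 1 field of its labels and was placed by its title. Rows were matched for 1 of 5 T cell markers (Cd4, also made by macrophages) and 1 of 5 B cell markers (Cd79b), and none of these passed 80.3 normalized counts. The murine table gave Rag1 0.880 to 23.1 normalized counts, but a tag at the 3′ end may lie outside the deleted part and does not check the genotype.

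The most abundant members over the 24 libraries were Ccl8 (ENSMUSG00000009185), a monocyte attractant, with a mean of 2777 ± 1336 normalized counts (SD, n = 24), and Cxcl14 (ENSMUSG00000021508), a homeostatic ligand of epithelium and stroma, with 2031 ± 747. Ccl6, a CC ligand of rodent macrophages, followed at 1919. Next were Cxcl12 (1592), the stromal ligand of Cxcr4, Ccr2 (1449), the receptor that brings monocytes out of the marrow, and Cx3cr1 (1417), the fractalkine receptor of monocytes and macrophages. Cxcl16 (1232), a membrane-bound ligand, and Cxcl9 (927) completed the first 8, which held 72.5% of all reads of the members. A further 7, from Ccl9 at 532 to Cx3cl1 at 258, brought the share to 88.4%. Here each read stands for 1 transcript end, so counts were compared between genes without division by length, and differences in capture between genes were not measured. In 44 of the 45 pairs of neighbors in this order, the mean log2 difference was smaller than its SD over the 24 libraries. That SD describes the spread between libraries and does not test the mean order. Some neighbors kept their order in most libraries, such as Cxcl16, above Cxcl9 in 20 and below it in 4, and others did not. Ccr2, for example, was above Cx3cr1 in 11 libraries and below it in 13.

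**Figure D1:**
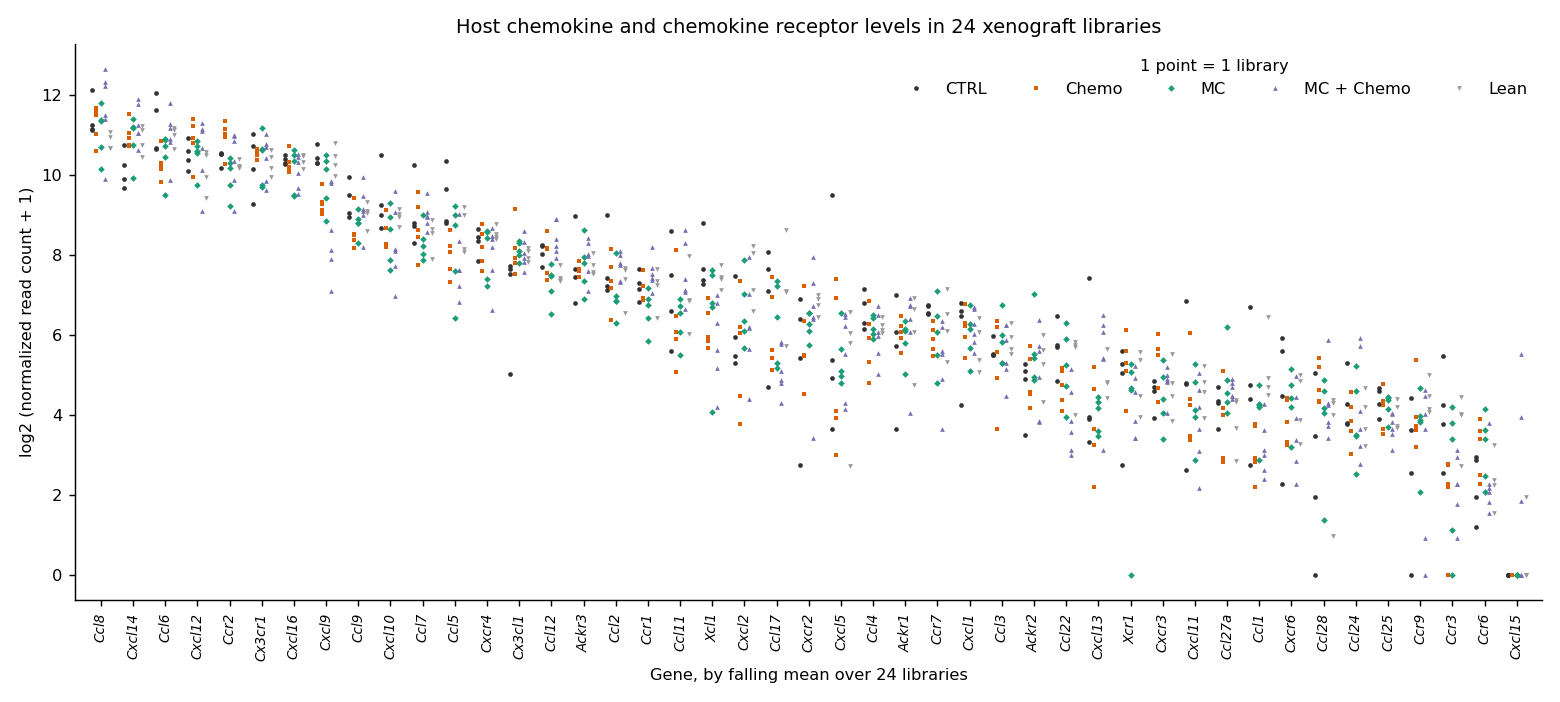
Level of each member reported in 24 libraries, as log2 of the normalized read count plus 1 (vertical axis), with genes ordered by mean (horizontal axis) and 1 point per library, colored by group. Levels run from Ccl8 at a mean of 2777 down to Cxcl15, listed at 0 in 20 libraries, and single libraries of Cxcl5, Cxcl13 and Cx3cl1 lie far from the rest of their group.

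At the low end, Cxcl15 was listed at 0 in 20 libraries and reached 45 in MC + Chemo 5, 14.4 in MC + Chemo 43, 2.88 in Lean 24 and 2.57 in MC + Chemo 47. It was the only member that did not pass the filter on low counts, which left 45 to test. MC + Chemo 5 and MC + Chemo 43 were also the highest libraries in skeletal muscle markers, whereas MC 41, the next highest, had no Cxcl15 read. Their part in the value was not tested.

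Reads of the human namesake, from the tumor cells, outnumbered the murine reads for some members. Murine reads made up 2.27% of the murine plus human reads of Cxcl1, 2.55% for Ccl28, 9.92% for Cxcl11, 12.4% for the receptor Ackr2, 33.9% for Cx3cl1 and 47.2% for Cxcl2. In contrast, the share was 93.0% for Cxcl14, 92.9% for Cxcl9, 96.0% for Ccl2 and 99.8% for Ccr2. It was 52.4% for Cxcr4, 53.2% for Ccl3, 57.5% for Cxcl16, 68.6% for Cxcl12, 70.95% for Cxcl10 and 79.7% for Ccl5. How reads that match both genomes were assigned is not given in the sources used here. Murine values of Cxcl1, Ccl28, Cxcl11, Ackr2, Cx3cl1 and Cxcl2 are therefore uncertain. To a lesser degree this holds for Cxcr4, Ccl3, Cxcl16, Cxcl12, Cxcl10 and Ccl5.

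The design asks how chemotherapy, MC and their combination each compare with CTRL. Under the edgeR quasi-likelihood F test, 0 of the 45 members and 0 of the 15011 genes met the 3 criteria of the study (a fold change above 1.5, a mean of more than 30 normalized counts and an adjusted p under 0.05) for Chemo, MC or MC + Chemo. The lowest adjusted p of a member was 0.741 for Chemo and 0.171 for MC + Chemo, and all members named below are described by their values. The study itself used DESeq2 with its criteria, and reported murine transcripts that differed from CTRL in each of the 3 groups. Under DESeq2 here, 0 members met the criteria for Chemo (0.0933% of all genes) and 0 for MC (1.43%). For MC + Chemo, 5 members met them under DESeq2 (11.1% of the members, 0.826% of all genes). These were Cxcl14, higher, and Cxcl9, Xcl1, Ccl17 and Ccl22, lower.

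At an unadjusted edgeR p below 0.05 there were 14 members for Chemo (31.1%), against 4.53% of all genes, and 11 of the 14 were lower than in CTRL (2.40% of all genes were lower at that threshold). For MC there were 10 (22.2%) against 11.8% of all genes, 8 of them lower (3.04% of all genes). For MC + Chemo there were 13 (28.9%) against 12.4%, 12 of them lower (7.34% of all genes). The median log2 fold change of the members was -0.27 for Chemo, -0.35 for MC and -0.11 for MC + Chemo, and that of all genes was 0.00, 0.00 and 0.01. CTRL 17 carried part of these counts. Without it, 6 members were past the threshold for Chemo (2.80% of all genes), 4 for MC (8.41%) and 9 for MC + Chemo (10.9%), and the member medians were -0.02, -0.14 and 0.02. Members are not independent of each other, and in bulk tissue fewer cells of a type and less RNA per cell cannot be told apart.

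**Figure D2:**
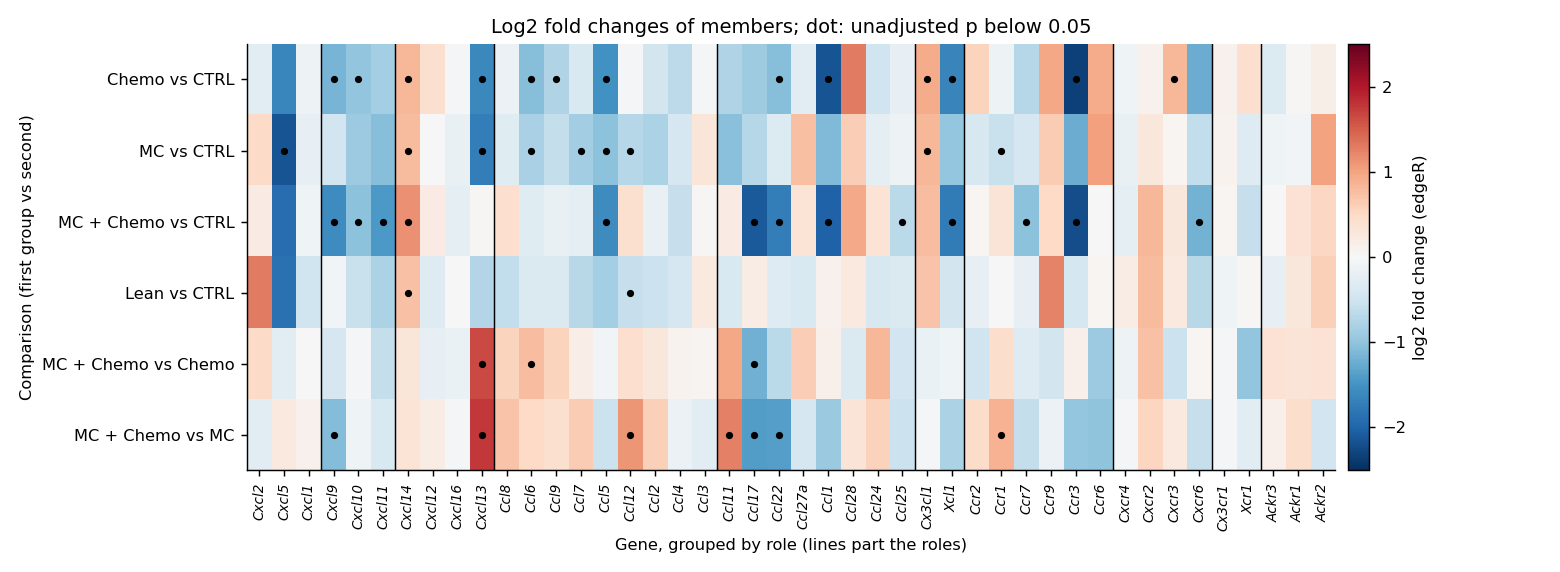
Log2 fold change of the tested members reported (columns, grouped by role) in 6 comparisons (rows), blue for lower and red for higher in the first group, with a dot at an unadjusted edgeR p below 0.05. Blue columns recur in the rows of Chemo and MC + Chemo against CTRL at Cxcl9, Cxcl10, Ccl5, Ccl22, Ccl1, Xcl1 and Ccr3, and Cxcl14 and Cx3cl1 are red in the 4 comparisons with CTRL.

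Among the interferon-induced CXC ligands, Cxcl9 (ENSMUSG00000029417) had the clearest separation. Its normalized counts were 1276, 1771, 1275 and 1386 in CTRL and 877, 555, 518, 638 and 617 in Chemo. In MC they were 462, 691, 1300.1, 1141 and 1450.2, in MC + Chemo they ran from 136 to 927 with a median of 337, and in Lean they were 1222, 1004, 1785 and 1423. Every Chemo and every MC + Chemo tumor lay below every CTRL tumor, while MC and Lean overlapped CTRL. The log2 fold change from CTRL was -1.15 ± 0.44 (SE) in Chemo (edgeR adjusted p = 1.00) and -1.57 ± 0.42 in MC + Chemo (adjusted p = 0.171; DESeq2 adjusted p = 0.0235). The exact permutation p was 0.00794 and 0.00952, unadjusted. Without CTRL 17 the log2 values were -1.20 and -1.64.

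Cxcl10, which like Cxcl9 binds Cxcr3, was at 1451, 608, 411 and 511 in CTRL and 562, 312, 295, 309 and 409 in Chemo. In MC + Chemo it ran from 125 to 773 with a median of 279. The groups overlapped, and the highest value was CTRL 17. Its log2 fold change was -0.98 ± 0.46 in Chemo and -1.02 ± 0.44 in MC + Chemo, and -0.44 and -0.49 without CTRL 17. Cxcl11, also a ligand of that receptor, was at 115 in CTRL 17 against 5.13 to 27.0 in the other CTRL libraries, and its log2 fold changes of -0.85 and -1.44 went to 0.28 and -0.33 without it, so for Chemo 1 library sets the sign. The receptor Cxcr3, carried by activated T and NK cells, was low in every library (9.52 to 64.2) and was the only member of its role with an unadjusted p below 0.05 for Chemo, at 0.82 ± 0.39 above CTRL (adjusted p = 1.00).

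Groups did not overlap with CTRL for 4 members in Chemo (8.89% of the members, 1.39% of all genes), namely Cxcl9, Xcl1, Ccl5 and Ccr7, all lower (0.726% of all genes were wholly lower). For MC + Chemo there were 3 (6.67%, against 2.54% of all genes), namely Cxcl9, Xcl1 and Ccr7, all lower (1.62% of all genes). For MC there was 1 (2.22%, against 2.09%), Cx3cl1, higher, and 0 were wholly lower (0.939% of all genes). For MC the share was close to that of all genes.

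Xcl1 (ENSMUSG00000026573), a ligand released by NK and CD8 T cells, was at 166, 199.9, 447 and 155 in CTRL and 56.4, 60.5, 92.8, 121 and 50.4 in Chemo. It was at 15.9, 112, 195, 103 and 181 in MC, from 17.4 to 128 with a median of 63.3 in MC + Chemo, and 168, 139.5, 215 and 175 in Lean. Both groups given chemotherapy lay wholly below CTRL, and MC reached from the lowest value of all libraries into the CTRL range. The log2 fold change was -1.65 ± 0.54 in Chemo and -1.76 ± 0.51 in MC + Chemo (edgeR adjusted p = 0.915 and 0.226; DESeq2 adjusted p for MC + Chemo 0.0484). Without CTRL 44, the library with 447, it was -1.18 and -1.30. The receptor Xcr1, found on cross-presenting dendritic cells, was at 0 to 68.3, and its log2 fold change was -0.57 in MC + Chemo (edgeR adjusted p = 0.722).

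Ccl5 (ENSMUSG00000035042), a CC ligand made by NK cells and macrophages, was at 1301, 464, 805 and 446 in CTRL and 395, 199, 160.4, 270.0 and 300.2 in Chemo. In MC it was at 85.7, 194, 428, 516 and 596, and in MC + Chemo it ran from 113 to 525 with a median of 196. In Lean it was at 284, 269.7, 587 and 515. Chemo lay below CTRL, and 1 MC + Chemo library, MC + Chemo 5, reached into the CTRL range. The fold change on the log2 scale was -1.51 ± 0.49 in Chemo, -1.03 ± 0.49 in MC and -1.58 ± 0.47 in MC + Chemo (edgeR adjusted p = 0.915, 0.417 and 0.226), and -1.10, -0.64 and -1.19 without CTRL 17.

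**Figure D3:**
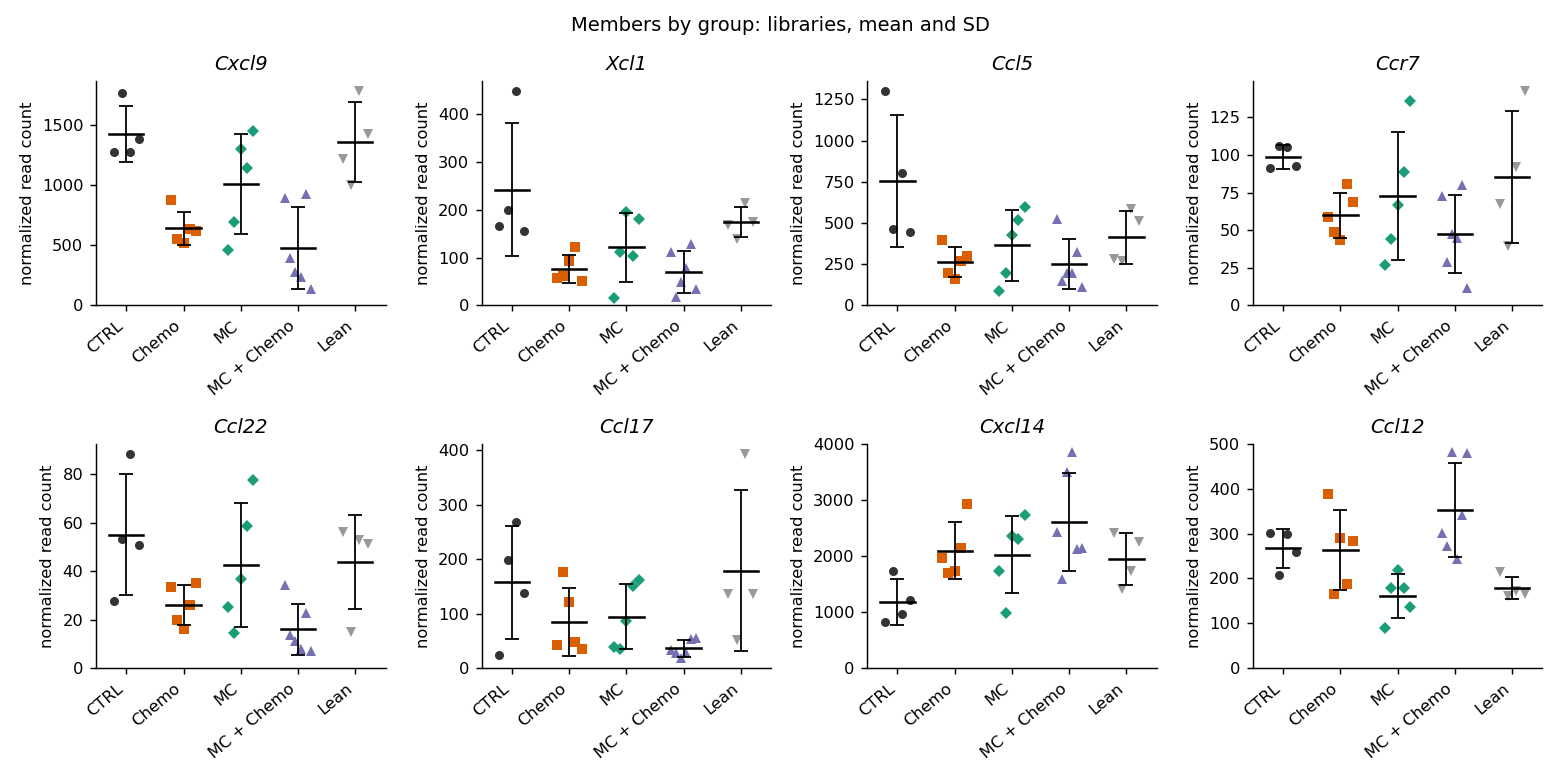
Normalized read counts of 8 members by group, with 1 point per library, a bar at the mean and whiskers of 1 SD. All Chemo and MC + Chemo points of Cxcl9, Xcl1 and Ccr7 lie below the CTRL points, Cxcl14 is lowest on average in CTRL at 1182, and Ccl12 is lowest in MC at 161 and highest in MC + Chemo at 353.

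The remaining inflammatory CC ligands attract monocytes and macrophages, and all 9 of the role had a negative log2 fold change for Chemo, with 3 at an unadjusted p below 0.05 (Ccl6, Ccl9 and Ccl5). Without CTRL 17, 5 of the 9 were negative for Chemo, only Ccl5 was at that threshold, and Ccl2, Ccl7, Ccl8 and Ccl12 were positive. For MC, 8 of the 9 were lower and 4 passed that threshold (Ccl6, Ccl5, Ccl12 and Ccl7). For MC + Chemo, 6 were lower and 1 passed it (Ccl5). Of all genes, 2.40% were lower at that threshold for Chemo, 3.04% for MC and 7.34% for MC + Chemo. Without CTRL 17, 7 were lower for MC with Ccl12 past it, and 3 were lower for MC + Chemo with Ccl5 past it. Ccl6 was at 4300.0, 1627, 3149.7 and 1639 in CTRL and 1864, 1183, 1134, 1267 and 912 in Chemo. It was at 722, 1922, 1394, 1886 and 1705 in MC and from 948 to 3616 with a median of 2118 in MC + Chemo. All groups overlapped, and the log2 fold change from CTRL was -1.07 ± 0.35 in Chemo and -0.80 ± 0.35 in MC, against -0.30 in MC + Chemo.

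CTRL 17 was the highest CTRL library for several ligands of this role. Ccl7, a ligand of Ccr2, was at 1227 there against 317 to 443 in the other CTRL libraries, and Ccl2, the main ligand of Ccr2, was at 513 against 140.0 to 170.4. The log2 fold change of Ccl7 in MC was -0.87 ± 0.37 and -0.27 without this library. Ccl3 and Ccl4, macrophage inflammatory ligands, ranged from 11.6 to 107 and from 26.7 to 142, with unadjusted p above 0.05 in each comparison.

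The 3 ligands that attract neutrophils through Cxcr2 showed 1 unadjusted p below 0.05, for Cxcl5 in MC. Cxcl1 ranged from 17.9 to 111 and Cxcl2 from 12.8 to 297, and groups overlapped. Cxcl5 was at 729 in CTRL 17 against 11.6 to 40.8, and its value for MC went from -2.15 to 0.71 without it. Cxcl13, the B cell attractant, was at 172 against 8.97 to 14.5, and its values for Chemo and MC went from -1.61 and -1.74 to 0.44 and 0.30. For these values 1 library sets the sign.

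Ccl12 (ENSMUSG00000035352), a murine ligand of Ccr2, gave the lowest p among members in the test of any difference over the 5 groups (edgeR adjusted p = 0.0708). In that test 14 members (31.1%) were at an unadjusted p below 0.05, against 13.7% of all genes. Ccl12 was at 302, 209, 299 and 259 in CTRL, 388, 165, 289, 188 and 284 in Chemo, and 90.5, 179, 219, 179 and 137 in MC. It ran from 243 to 481 with a median of 321 in MC + Chemo and was at 214, 162, 171 and 165 in Lean. Every MC + Chemo tumor lay above every MC tumor, and CTRL and Chemo overlapped both.

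The 8 eosinophil, Th2 and homeostatic CC ligands held 4 members at an unadjusted p below 0.05 for MC + Chemo, all lower (Ccl1, Ccl17, Ccl22 and Ccl25). For Chemo they held 2, both lower (Ccl1 and Ccl22). Of all genes, 7.34% were lower at that threshold for MC + Chemo and 2.40% for Chemo. Without CTRL 17, Ccl1, Ccl17 and Ccl22 were lower at that threshold in both comparisons, and Ccl25 in neither. Ccl17 (ENSMUSG00000031780) and Ccl22 (ENSMUSG00000031779) are ligands of Ccr4 made mainly by dendritic cells and alternatively activated macrophages. Ccl17 was at 25, 199, 268 and 138 in CTRL, 42, 176, 122, 48 and 34.2 in Chemo and 38.1, 35.4, 87.0, 149.8 and 162 in MC. It ran from 18.6 to 55.5 with a median of 30.9 in MC + Chemo and was at 135, 51.5, 393 and 136 in Lean. MC + Chemo lay below CTRL apart from CTRL 17, which was within its range. Log2 fold changes from CTRL were -0.89 in Chemo, -0.71 in MC and -2.10 ± 0.56 in MC + Chemo (edgeR adjusted p = 0.172, DESeq2 0.0236). Without CTRL 17 they were -1.25, -1.08 and -2.47.

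Ccl22 was at 27.8, 53.1, 88.4 and 50.9 in CTRL and 33.6, 19.8, 16.1, 26.0 and 35.2 in Chemo. It was at 25.4, 14.5, 36.9, 58.5 and 77.7 in MC, from 7.04 to 34.3 with a median of 12.3 in MC + Chemo, and at 56.2, 15, 52.7 and 51.3 in Lean. CTRL 17 again overlapped the treated groups. On the log2 scale Chemo differed from CTRL by -1.06 ± 0.48 and MC + Chemo by -1.73 ± 0.46 (edgeR adjusted p = 1.00 and 0.172, DESeq2 for MC + Chemo 0.0296).

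Ccl1, a ligand of Ccr8, was at 5.76, 20.3, 103 and 25.8 in CTRL, and its log2 fold change of -2.16 ± 0.61 in Chemo and -2.03 ± 0.57 in MC + Chemo went to -1.06 and -0.94 without CTRL 44. Leaving out CTRL 17 moved the values the other way, to -2.52 and -2.40. Ccl25, the gut and thymus ligand of Ccr9, was at 19.9 ± 4.80 in CTRL (SD, n = 4) and 12.3 ± 2.96 in MC + Chemo (n = 6). Ccl11, the eosinophil ligand of Ccr3, ranged from 32.6 to 393 and overlapped in all groups, and Ccl24, a further ligand of Ccr3, ranged from 4.76 to 60.0. The receptor Ccr3, which marks eosinophils, was at 43.2, 4.83, 17.9 and 12.6 in CTRL, 0 to 5.81 in Chemo and 0.880 to 7.71 in MC + Chemo, at so few reads that 1 read moves the value. The eosinophil markers matched in the table (Siglecf and Prg2) summed to 22.1 to 38.4 in CTRL, 6.05 to 22.8 in Chemo and 5.28 to 13.7 in MC + Chemo. Ccl27a and Ccl28, skin and mucosal ligands of Ccr10, were low, at 6.05 to 72.6 and 0 to 57.5.

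Cxcl14 went the other way. Its normalized counts were 818, 1738, 959.8 and 1212 in CTRL, 1962, 1689.7, 1731, 2148 and 2937 in Chemo and 1735, 983, 2361, 2305 and 2737 in MC. They ran from 1584 to 3851 with a median of 2287 in MC + Chemo and were 2406, 1412, 1726 and 2248 in Lean. CTRL held 3 of the 4 lowest values, but its highest library, CTRL 31, overlapped each other group. Against CTRL, the log2 fold change of Chemo was 0.83 ± 0.31 and that of MC 0.79 ± 0.31 (edgeR adjusted p = 0.976 and 0.312). MC + Chemo was 1.13 ± 0.30 higher (edgeR adjusted p = 0.171, DESeq2 0.0189), and Lean 0.72 ± 0.31 (adjusted p = 1). These 4 comparisons share the CTRL libraries. Without CTRL 17, the log2 values were 0.68 for Chemo, 0.63 for MC, 0.98 for MC + Chemo and 0.58 for Lean. Only MC + Chemo was then at an unadjusted edgeR p below 0.05.

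Cx3cl1, fractalkine, is a membrane-bound ligand of endothelium and epithelium. It was at 31.7, 202, 185 and 212 in CTRL, 182, 289.6, 566, 242 and 223 in Chemo and 324, 258, 221, 313 and 273 in MC. It ran from 190.3 to 386 with a median of 254 in MC + Chemo and was at 290.2, 228, 244 and 275 in Lean. MC and Lean lay wholly above CTRL, but the highest CTRL value (212) and the lowest MC value (221) were close, and CTRL 17 was far below the other CTRL libraries. Most reads of this gene were human, and mean human CX3CL1 was also lowest in CTRL (254 ± 238, SD, against 465 to 634 in the other groups). The part of misassigned human reads in the murine values was not tested. The log2 fold change of murine Cx3cl1 was 0.93 ± 0.39 in Chemo and 0.83 ± 0.39 in MC, and 0.47 in MC without CTRL 17. Its receptor Cx3cr1 had group means between 1283 ± 263 in Lean and 1487 ± 104 in Chemo (SD, n = 4 and n = 5), and its 4 log2 fold changes from CTRL ran from -0.11 to 0.10.

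Cxcl12 and its receptors Cxcr4 and Ackr3 had unadjusted p above 0.05 in each comparison. The mean of Cxcl12 was 1481 ± 368 in CTRL (SD), highest in Chemo at 1965 ± 649.6 and lowest in Lean at 1169 ± 399.5, with MC at 1490.3 ± 378 and MC + Chemo at 1720.5 ± 761. Mean human CXCL12 was also highest in Chemo (1032 ± 531, SD), against 584 in CTRL to 775 in MC for the other groups. The part of misassigned human reads in murine Cxcl12 was not tested. Cxcr4 ranged from 97.7 to 440.1 with group means from 282 to 372, and Ackr3, which scavenges Cxcl12, ranged from 111 to 508 with group means from 195 to 251. Cxcl16 was among the steadiest members, with a coefficient of variation of 21.8% over the 24 libraries and group means from 1132 to 1331. Its receptor Cxcr6 was at 3.84 to 59.5, with a log2 fold change of -1.19 ± 0.56 in MC + Chemo and -0.77 without CTRL 17.

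Of the CC receptors, Ccr2 was at 1164, 1485, 1501 and 1469 in CTRL and 2633, 1993, 2290.4, 2106 and 1246 in Chemo. It was at 603, 859, 1156, 1373 and 1271 in MC and from 548 to 2048 with a median of 1590.0 in MC + Chemo. Chemo held 3 of the 4 highest values but its lowest library was within CTRL, and the log2 fold change was 0.55 (adjusted p = 1.00).

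Ccr7, which takes mature dendritic cells to lymph nodes, was at 91.2, 106, 105 and 92.4 in CTRL and 58.8, 48.8, 43.4, 80.5 and 68.4 in Chemo. It was at 27.0, 44.4, 66.7, 88.7 and 136 in MC, from 11.4 to 80.1 with a median of 46.2 in MC + Chemo, and at 67.1, 39.3, 92.0 and 143 in Lean. CTRL values were close together, and Chemo and MC + Chemo lay below them. Its log2 fold change was -0.71 in Chemo and -1.03 ± 0.41 in MC + Chemo (edgeR adjusted p = 0.311). Ccr6 and Ccr9 had at most 16.8 and 40.7 normalized counts. Among the CXC receptors, Cxcr2, the neutrophil receptor for Cxcl1, Cxcl2 and Cxcl5, was at 5.76 in CTRL 17 and 9.69 in MC + Chemo 52, and otherwise at 22.1 to 247. Of the atypical receptors, Ackr1, found on venules and red cells, ranged from 11.53 to 127 and Ackr2, which clears CC ligands, from 10.3 to 129, and all 3 had an unadjusted p above 0.05 in each comparison.

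Chemotherapy was also compared on the MC diet, with MC + Chemo against MC. Under edgeR 0 members met the criteria (lowest adjusted p 0.475) and 7 (15.6%) were at an unadjusted p below 0.05, against 9.87% of all genes. Under DESeq2, 1 member met the criteria (0.0466% of all genes), Ccl12. Ccl12 was 1.11 ± 0.25 higher (edgeR adjusted p = 0.475, DESeq2 0.0422; exact permutation p = 0.00216), and it was the only member whose groups did not overlap (2.22%, against 0.886% of all genes, 0.50% wholly lower). Ccr1, a receptor for several CC ligands on monocytes and neutrophils, was at 57.1, 85.3, 145, 108 and 119 in MC and from 131 to 292 with a median of 177 in MC + Chemo, a log2 difference of 0.86 ± 0.24. Ccl11 and Cxcl13 were also higher, at 1.26 ± 0.54 and 1.77 ± 0.71, and Ccl22, Cxcl9 and Ccl17 were lower, at -1.38 ± 0.45, -1.09 ± 0.40 and -1.39 ± 0.54 (3 members lower, against 6.16% of all genes).

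The comparisons of Chemo with CTRL and of MC + Chemo with MC share no library. Both values were negative for 18 of the 45 members (40%), against 25.6% of all genes, and both were positive for 7 (15.6%, against 19.8%). Signs were the same in 25 members (55.6%), against 45.4% of all genes. Without CTRL 17 both were negative for 17 members (37.8%, against 28.0% of all genes) and both positive for 14 (31.1%, against 21.8%), and the number negative for Chemo went from 32 to 24. Cxcl9 and Ccl22 were at an unadjusted p below 0.05 and lower in both. Ccl17 was at -0.89 and -1.39. Xcl1 was at -1.65 and -0.80, and Ccl5 at -1.51 and -0.55. Ccl6, Ccl11 and Cxcl13 had opposite signs, at -1.07 and 0.50, at -0.76 and 1.26, and at -1.61 and 1.77. Without CTRL 17 the Chemo value of Ccl6 was -0.74, that of Ccl11 was -0.02 ± 0.58 (SE) and that of Cxcl13 was 0.44. The opposite signs of Cxcl13 therefore rest on that library, and without it the sign of Ccl11 in Chemo cannot be read.

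**Figure D4:**
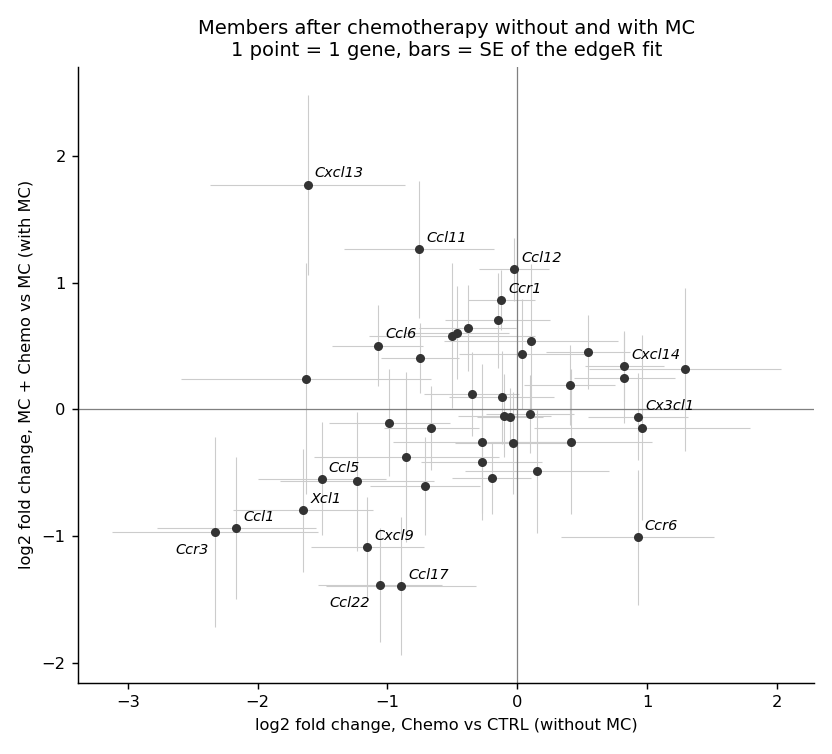
Log2 fold change of each tested member reported for Chemo against CTRL (horizontal axis) and for MC + Chemo against MC (vertical axis), with bars of 1 SE. At the lower left lie 18 members, among them Cxcl9, Ccl22, Ccl17, Xcl1 and Ccl5, whereas Cxcl13, Ccl11 and Ccl6 lie at the upper left (without CTRL 17, Cxcl13 is at 0.44 and Ccl11 at -0.02 on the horizontal axis).

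The difference between these responses was tested as the interaction of MC and chemotherapy. Under edgeR and under DESeq2 0 members met the criteria (edgeR lowest adjusted p 0.695), and 8 (17.8%) were at an unadjusted edgeR p below 0.05, against 6.87% of all genes. Of the 8, 7 were positive, among them Ccl6 (1.58 ± 0.47), Ccl12 (1.13 ± 0.36), Ccl9 (1.15 ± 0.41), Ccl11 (2.02 ± 0.79), Cxcl13 (3.39 ± 1.03) and Ccr1 (0.98 ± 0.35), and Ccr6 was negative (3.30% of all genes). Of the inflammatory CC ligands, 8 of 9 were positive, with a median of 1.02, against -0.04 for all genes. The CTRL mean enters this term with a positive sign, so a high CTRL library raises it. Without CTRL 17 the median of these 9 ligands was 0.55, with 8 still positive, and the values were 1.34 for Cxcl13, 1.30 for Ccl11 and 1.25 for Ccl6. Ccl6, Ccl9, Ccl12 and Ccr1 were then still at an unadjusted p below 0.05, and Cxcl13, Ccl11 and Ccr6 were not.

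MC + Chemo against Chemo gave 3 members (6.67%) at an unadjusted p below 0.05, against 11.0% of all genes, and 0 members met the criteria under edgeR or DESeq2 (DESeq2 0.147% of all genes). The 3 were Ccl6 (0.77 ± 0.32), Cxcl13 (1.65 ± 0.70) and Ccl17 (-1.21 ± 0.54), the only 1 that was lower (6.57% of all genes). For 0 members did the groups not overlap (1.33% of all genes, 1.01% wholly lower). Without MC + Chemo 43, 0 members passed that threshold. The share of members was below that of all genes.

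Lean tumors were compared with CTRL, a comparison in which diet and the weekly saline of CTRL cannot be told apart. Under edgeR and DESeq2 0 members met the criteria (lowest edgeR adjusted p 1, DESeq2 0.00665% of all genes), and 3 (6.67%) were at an unadjusted edgeR p below 0.05, against 3.11% of all genes. Among them were Cxcl14, higher, and Ccl12 (-0.57 ± 0.27), lower, and 2 of the 3 were lower (1.74% of all genes were lower at that threshold). Groups did not overlap for 2 members (4.44%, against 2.93% of all genes), 1 of them lower (1.48% of all genes). Ccl8 was at 2151, 1971, 1647 and 1655 in Lean and 4512, 2254, 2465 and 2264 in CTRL, and Cx3cl1 was higher in Lean. Since these groups did not overlap, the exact permutation p of 4 against 4 libraries was fixed at 0.0286 for each and adds no support. Without CTRL 17 the unadjusted edgeR p was 0.459 for Ccl8 and 0.191 for Cx3cl1. Without CTRL 17, Lean 3 or Lean 54, 1 member passed the unadjusted threshold. Cxcl2, a neutrophil attractant induced by inflammation, had a mean of 199 ± 96.6 in Lean and 79.9 ± 65.6 in CTRL (n = 4 each), and the groups overlapped.

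Several members moved with the summed markers of a cell type across the 24 libraries. A total of 16 member and marker pairs were computed on log2 values, chosen after the values were seen, with two-sided permutation tests and Benjamini-Hochberg adjustment over the 16. Unadjusted permutation p of r ran from 5e-05 for Cxcr2 with neutrophil markers to 0.58 for Cxcl12 with fibroblast markers. Ccl17 followed the dendritic cell markers (Xcr1 left out) at Pearson r = 0.714 (adjusted permutation p = 0.00037) and Spearman rho = 0.775 (adjusted permutation p = 0.00032), with r = 0.764 without the 2 libraries farthest from the median, MC + Chemo 43 and MC + Chemo 52. Ccl22, Cxcl9 and Ccr7 had r = 0.701, 0.725 and 0.646 with the same markers (rho = 0.711, 0.618 and 0.558; adjusted permutation p of r 0.00061, 0.00061 and 0.0016, of rho 0.0018, 0.010 and 0.016), and r = 0.565, 0.514 and 0.486 without those 2. Of the 6 dendritic cell markers (Xcr1 among them), 5 were lower in MC + Chemo than in CTRL, 2 of them (Itgax and Clec9a) at an unadjusted p below 0.05, whereas 5 of the 6 were higher in Chemo than in CTRL (median log2 fold change 0.38, 0 at an unadjusted p below 0.05), in which Cxcl9, Ccl17, Ccl22 and Ccr7 had negative values. Without CTRL 17, 4 of the 6 were higher in Chemo (median 0.13) and Itgax was lower at an unadjusted p below 0.05. The marker sum was 411 to 1138 in CTRL, 529 to 864 in Chemo and 294 to 770.4 in MC + Chemo. The part of these cells in the values of Cxcl9, Ccl17, Ccl22 and Ccr7 was not tested.

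Xcl1 and Ccl5 had r = 0.754 and 0.637 with the NK cell markers (rho = 0.577 and 0.550; adjusted permutation p of r 0.00037 and 0.0016, of rho 0.015 and 0.016), and 0.571 and 0.490 without MC 6 and MC + Chemo 25. The NK markers summed to 259 to 384 in CTRL, 98.8 to 684 in Chemo and 65.7 to 328 in MC + Chemo, and all 5 tested were lower in MC + Chemo than in CTRL, 3 of them (Ncr1, Klrk1 and Eomes) at an unadjusted p below 0.05. In Chemo 34 the NK sum was the highest of all libraries at 684. Its Xcl1, at 121, was the highest of Chemo (others 50.4 to 92.8) and below every CTRL library. The part of NK cells in the values of Xcl1 and Ccl5 was not tested. Centered on group means, the r of Xcl1, Ccl5, Ccl17, Ccl22, Cxcl9 and Ccr7 with these markers was 0.727, 0.569, 0.612, 0.60, 0.660 and 0.542.

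Cxcr2 followed the neutrophil markers at r = 0.747 and rho = 0.529 (adjusted permutation p = 0.00037 and 0.018), with r = 0.47 without CTRL 17 and MC + Chemo 52. Ccr2, Ccr1 and Ccl6 had r = 0.560, 0.651 and 0.553 with the monocyte and macrophage markers (rho = 0.383, 0.404 and 0.537; adjusted permutation p of r 0.0075, 0.0019 and 0.0074, of rho 0.088, 0.075 and 0.016). Without Chemo 19 and MC 6 r was 0.262, 0.47 and 0.402 (permutation p = 0.24, 0.028 and 0.065), so for Ccr2 the relation rests on those libraries. For Ccl6 it was weaker without them. Cx3cr1, at r = 0.337 and rho = 0.247 (adjusted permutation p = 0.13 and 0.28), did not pass. Cx3cl1 with the endothelial markers was at r = 0.655 and rho = 0.294 (adjusted permutation p = 0.014 and 0.20) and at r = 0.184 without CTRL 17 and MC + Chemo 52, on which it rests. Ackr1 with the endothelial markers (r = -0.252, rho = -0.194) and Cxcl12 with the fibroblast markers (r = -0.118, rho = -0.140) had adjusted permutation p of r of 0.26 and 0.58, and of rho of 0.39 and 0.51. Cxcl14 with the fibroblast markers was at r = 0.229 and rho = 0.404 (adjusted permutation p = 0.30 and 0.075), and at r = 0.686 without CTRL 17 and MC + Chemo 52.

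**Figure D5:**
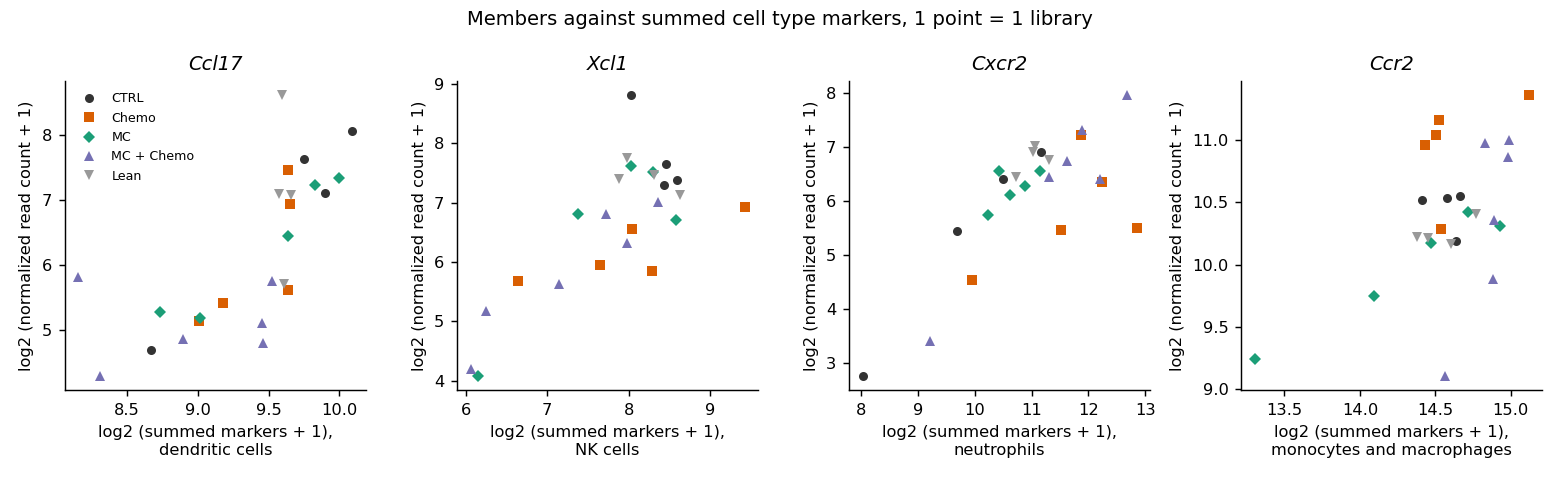
Normalized read count plus 1 (log2, vertical axis) of Ccl17, Xcl1, Cxcr2 and Ccr2 against the summed markers plus 1 of dendritic cells, NK cells, neutrophils, and monocytes and macrophages (log2, horizontal axis), with 1 point per library. Pearson r is 0.714, 0.754, 0.747 and 0.560 over the 24 libraries, and single libraries at the left of each panel weigh on the last 3.

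Genes that act with the members were read from 3 further lists. Of 22 signaling genes below the receptors, 0 were at an unadjusted p below 0.05 for Chemo, 2 for MC (Dock2 and Prex1, both lower) and 4 for MC + Chemo, against 4.53%, 11.8% and 12.4% of all genes. The 4 were Fpr1, the formyl peptide receptor of neutrophils, higher at 1.14 ± 0.35, and Grk3 (-0.90 ± 0.28), Grk6 (-0.30 ± 0.14), both receptor kinases, and Dock2 (-0.66 ± 0.24), an activator of Rac in leukocytes. Of 20 tested cytokine and NF-kB genes, 1 passed for Chemo (Ifngr1, higher at 0.53 ± 0.21), 0 for MC and 2 for MC + Chemo (Irf1 at -0.41 ± 0.15 and Tnf at -0.70 ± 0.32). Of 7 chemoattractant genes under other names, Rarres2, which encodes chemerin, was lower in Chemo (-1.29 ± 0.58), MC (-1.43 ± 0.58) and Lean (-1.72 ± 0.59). Pf4, a platelet CXC ligand, was higher in MC + Chemo (0.73 ± 0.31). Leaving out CTRL 17 turned Rarres2 higher in Chemo and MC, so that library sets the sign of both values. Rarres2 was then higher in MC + Chemo at an unadjusted p below 0.05, and lower in Lean but not at that threshold. Ifngr1 was then still higher in Chemo but no longer passed, and Nfkb1 passed, lower, for MC and MC + Chemo. Under edgeR 0 genes of these 3 lists met the criteria in any of the 7 comparisons.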

How the data were processed

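RNA of 24 xenograft tumors was sequenced from transcript 3′ ends (Lexogen QuantSeq, 50 bp forward reads), and reads were aligned by the authors on the BlueBee platform. The submitters' processing notes list GRCm38 and DESeq2 1.22.2. The authors deposited raw murine and human counts per gene, and a normalized table that equaled the raw counts divided by 1 size factor per library, so its values are a scaled signal made by the authors. The raw counts were tested with edgeR 4.0.16 in R 4.3.3 (TMM scaling, filterByExpr, quasi-likelihood F test, Benjamini-Hochberg adjustment over all genes tested). One fit held the 20 libraries on the high-fat diet, and another all 24 for Lean and for any difference among groups. Called genes had an adjusted p below 0.05, a mean normalized count above 30 and a fold change above 1.5, as in the study. DESeq2 1.42.0 was an alternative. Exact permutation tests (two-sided, unadjusted) used log2(normalized count + 1), and correlations 100000 shuffles in Python 3.11.15 with numpy 2.4.6 and scipy 1.17.1. Levels are normalized counts, and fold changes come from edgeR. The code was checked on simulated counts. Members given with values were the 15 most abundant, up to 6 of lowest unadjusted p per comparison and both sides of known ligand and receptor pairs, and the others are given by ranges. The members and lists were chosen with earlier results of these data known. Groups came from sample titles. Mice differ between libraries, and no 2 libraries of a group had identical counts. Chromosome positions and sequences are not given here. The values of 1 member are not reported here, but it is in the counts, medians and adjustments.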

Additional observations from a re-analysis of the deposited data

Results flagged for a closer look

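In 19 of 200 tests of a member within a group of 4 to 6 libraries, the highest or lowest library stood apart from the others by Dixon's 95% criterion. That criterion assumes normally distributed values, whereas counts were used without a log transform and the tests share libraries. The number of flags can therefore not be set against a chance rate. CTRL 17 was that library in 7 of the 19. It was high for Cxcl5 (729 normalized counts, others 11.6 to 40.8), Cxcl13 (172, others 8.97 to 14.5), Ccl2 (513, others 140.0 to 170.4), Ccl7 (1227, others 317 to 443) and Ccl8 (4512, others 2254 to 2465). It was low for Cx3cl1 (31.7, others 185 to 212) and Ccr2 (1164, others 1469 to 1501). The same library had the lowest summed endothelial markers and the highest summed fibroblast markers of the 24.

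Among the other CTRL libraries, CTRL 44 was high for Xcl1 (447, others 155 to 199.9) and CTRL 70 for Cxcl2 (177, others 38.4 to 60.8). In Chemo, Chemo 19 was high for Ccl9 (695, others 289.8 to 367), Chemo 33 for Cx3cl1 (566, others 182 to 289.6), Chemo 34 for Ccr9 (40.7, others 8.14 to 14.4) and Chemo 67 for Ccl11 (277, others 32.6 to 88.6). In MC, MC 41 was high for Ccl27a (72.6, others 15.5 to 28.6) and MC 42 for Ccl2 (263, others 78.0 to 125). In MC + Chemo, MC + Chemo 47 was high for Ccr6 (12.9, others 1.93 to 3.81) and MC + Chemo 50 for Ccl28 (57.5, others 9.66 to 18.6). In Lean, Lean 24 was high for Ccl1 (86.2, others 21.5 to 29.4) and Lean 21 was low for Ccl22 (15, others 51.3 to 56.2). The causes were not tested.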

How the results depend on the processing

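No paired analysis was possible because the mouse numbers are not shared between groups. The number of members called by edgeR was 0 in every comparison without any 1 library. DESeq2 called 5 members for MC + Chemo against CTRL and 1 for MC + Chemo against MC. The number at an unadjusted p below 0.05 ranged, without 1 library, from 6 (CTRL 17) to 16 for Chemo, from 4 (CTRL 17 or MC 6) to 15 for MC, from 9 to 16 for MC + Chemo and from 1 to 5 for Lean. It ranged from 0 (MC + Chemo 43) to 5 for MC + Chemo against Chemo, from 5 to 12 against MC and from 6 to 11 for the interaction. For Chemo it was 8 with library size only and with the murine plus human total. For MC it was 4 with that total, 5 with only the groups compared and 6 with MC + Chemo 5 taken as MC. For Lean it was 1 with library size only, with the total and without the RNA cleanup libraries, and 6 with only the groups compared. For MC + Chemo against Chemo it was 1 with the total. Without CTRL 17, MC 41 and MC + Chemo 52 together, an alternative chosen after seeing the data, it was 7 for Chemo, 5 for MC, 0 for Lean and 5 for the interaction. Those libraries also turned Cxcl13 to 0.44 for Chemo and 0.23 for MC, and Cxcl5 to 0.80 for MC. Without 1 library these ran from -2.10 to 0.44, from -2.07 to 0.30 and from -2.55 to 0.71, the last value of each without CTRL 17. Of 1141 values of 57 named gene and comparison pairs under alternatives, 1128 kept their direction and side of the threshold, 7 were newly called (all by DESeq2) and 6 reversed. Since edgeR called none, keeping the side says nothing about stability. Scaling by the total moved the median of all genes by 0.13 for Lean, -0.18 for MC + Chemo against Chemo, -0.15 against MC and -0.25 for the interaction, and library size only by -0.14 for MC and -0.13 for MC + Chemo against Chemo. Members under 30 normalized counts, such as Ccr3, Ccr6 and Ccl1, are limited by depth.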
